A study of Mus musculus with 35 samples.

Results

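Zfp36, Zfp36l1, Zfp36l2, Zc3h12a and Rc3h1 encode RNA-binding proteins that shorten the life of cytokine messenger RNAs, and they were described here in CD8 T cells taken from mouse brain and spleen. The genes were chosen by name, with earlier results of these data known, and all 5 were found among the 38924 genes of the count table. RNA sequencing libraries were made from total RNA of C57BL/6 CD8 T cells sorted for CD3e+CD8+CD44hiCD62Llo surface markers, which effector memory cells carry. Stimulated cells were held for 2 h with PMA, a phorbol ester, and ionomycin, a calcium ionophore, which together activate T cells without engaging the antigen receptor. Whether unstimulated cells were held for the same time without the drugs is not given in the sources used here. The 35 libraries form 7 groups. Brain cells came from aged females with stimulation (n = 5) and without it (n = 5), from aged males with stimulation (n = 4) and without it (n = 6), and from young males without stimulation (n = 5). Spleen cells came from aged males with stimulation (n = 5) and without it (n = 5). The labels give age only as a class, aged or young. They leave it unsaid whether each replicate came from its own animal, so a p-value here speaks of the spread among these libraries, part of which may be technical.

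The ZFP36 family, also called the tristetraprolin family, consists of zinc finger proteins that bind AU-rich elements in the 3' untranslated region (UTR) of short-lived transcripts and recruit the CCR4-NOT complex, which removes the poly(A) tail. Regnase-1, the product of Zc3h12a, is an endonuclease that cuts transcripts at stem-loops, and roquin-1, the product of Rc3h1, binds similar stem-loops and also recruits deadenylases. In activated T cells these proteins restrain the output of cytokines such as TNF and interferon gamma, and several of them act on their own transcripts.

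Library totals ran from 1.16 to 24.97 M counts, and 2271 to 15174 genes had at least 1 count. Mitochondrial genes took 38.47 to 69.73% of counts in the stimulated brain libraries and 8.28 to 20.83% in all other libraries. All 8 CD8 T cell markers, Cd3e and Cd8a among them, were detected in every library other than those of stimulated brain, where 3 to 7 markers were detected in male and 6 to 8 in female libraries. Stimulated male brain replicates 20, 21 and 22 had 0 counts of both the Y-linked Ddx3y and Xist, so their sex label could not be checked. Fold changes and gene counts of male brain stimulation are given with and without them, as are the calls between stimulated tissues. Stimulated female brain replicate 27 also had 0 counts of both, so its label could not be checked either. Xist counts occurred in male libraries too, up to 244 in unstimulated aged male brain replicate 8, beside 1510 of Ddx3y. Replicates carry the numbers of the sample titles. Title format and the numbering after S place the libraries in sets that may be preparations. One set holds unstimulated male brain, another holds unstimulated female brain together with stimulated male brain and replicates 23 to 25 of stimulated female brain, and the last, written without hyphens, holds all spleen libraries and stimulated female brain replicates 26 and 27. Stimulation in spleen and age in brain were compared within 1 set, whereas tissue, sex and the male brain response cannot be told apart from the set.

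Stimulation raised all 5 genes in libraries of sorted spleen CD8 T cells, though Rc3h1 not under scaling by library totals. These libraries also held RNA of B cell and CD4 T cell markers, given below. Zfp36 was 23.9 times and Zfp36l1 15.6 times the unstimulated level, Zc3h12a 7.71 times, Zfp36l2 4.31 times and Rc3h1 1.46 times. Of the 11107 genes tested, 12.6% were called higher and 18.7% were called in either direction at an adjusted p under 0.05 by edgeR's quasi-likelihood test with Benjamini-Hochberg adjustment over all genes tested, and the median over all genes was -0.07 on the log2 scale. Scaled by library totals without TMM, 4.71% of genes were called higher and 39.4% lower. With TMM scaling, the stimulated and unstimulated libraries did not overlap for any of the 5 genes, which held for 10.9% of genes in the upward direction. Under library totals without TMM, those of Rc3h1 did overlap. In bulk RNA, fewer cells of a type and less RNA per cell cannot be told apart.

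Zfp36 (ENSMUSG00000044786; chromosome 7, 28376784 to 28380253, minus strand, GRCm38), which encodes tristetraprolin, had 377, 561, 414, 404 and 515 CPM (counts scaled by library totals with TMM factors) in stimulated spleen, against 19.8, 21.8, 20.1, 13.9 and 17.5 CPM in unstimulated spleen. The lowest stimulated library lay far above the highest unstimulated one. The group means were 454 ± 79.4 and 18.6 ± 3.05 CPM (SD, n = 5 each). The log2 fold change was 4.58 ± 0.18 (SE), with an adjusted p of 3.9e-09. Only 0.495% of the genes tested had a larger one.

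Zfp36l1 (ENSMUSG00000021127; chromosome 12, 80107754 to 80113013, minus strand) behaved much the same, with 421, 503, 321, 384 and 568 CPM in stimulated spleen, against 24.3, 32.4, 29.3, 20.5 and 31.5 CPM in unstimulated spleen. Its log2 fold change was 3.96 ± 0.20 (adjusted p = 3.3e-08). Zfp36l2 (ENSMUSG00000045817; chromosome 17, 84183931 to 84187947, minus strand), the family member with the highest TPM (a level that corrects for transcript length) in unstimulated spleen, had 260, 401, 217, 250 and 369 CPM with stimulation, against 63.6, 75.4, 68.4, 68.6 and 64.8 CPM without. The groups were separate here too, but the log2 fold change was smaller, at 2.11 ± 0.18 (adjusted p = 3.9e-06), with an interval of 1.72 to 2.49 that lay below those of Zfp36 (4.19 to 4.97) and Zfp36l1 (3.53 to 4.40). Gm26669, a lincRNA on the opposite strand that overlaps Zfp36l1, had at most 55 counts in any library. Zfp36 and Zfp36l2 overlap annotated antisense genes that were not in the count table, and the use of strand in counting is not given in the sources used here.

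**Figure D1:**
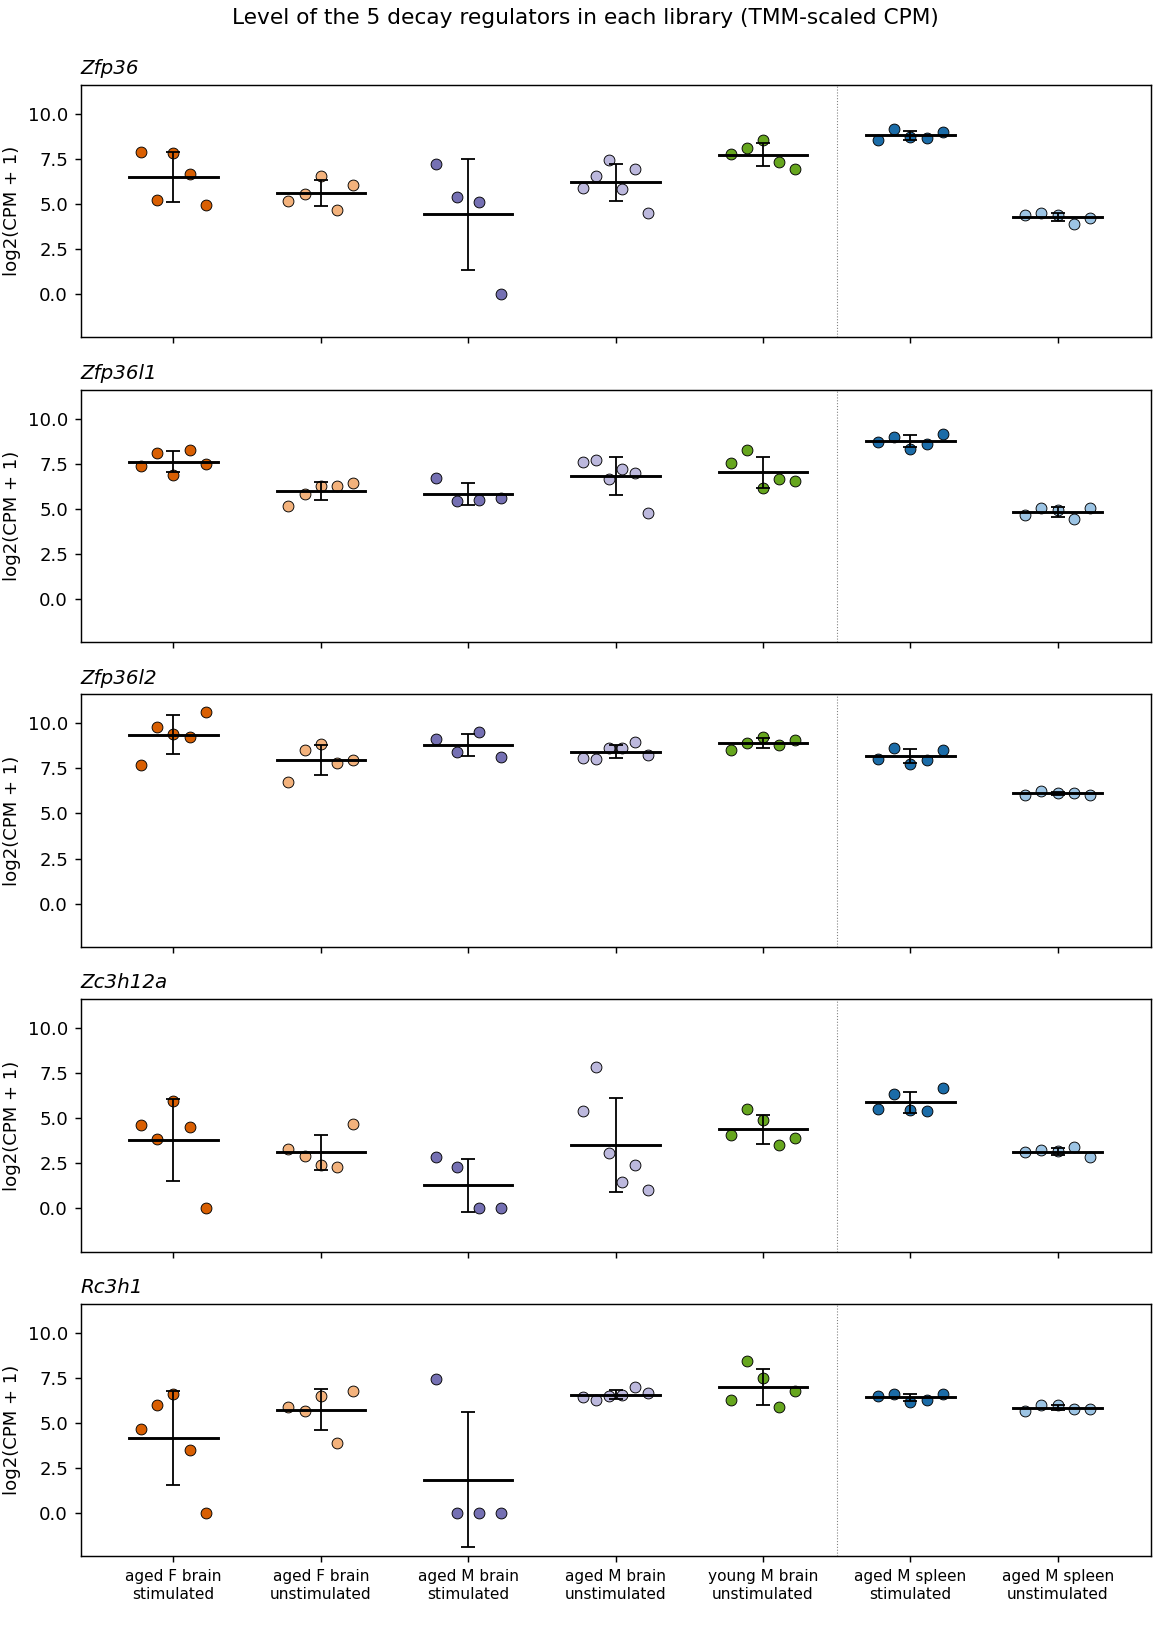
Level of each of the 5 decay regulators in every library, as log2(CPM + 1) with TMM-scaled CPM. Points are libraries, and the bar and whiskers are the group mean and SD; F is female and M is male. The stimulated spleen libraries lie above the unstimulated spleen libraries for every gene on this scale, and brain groups are more scattered.

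The promoters of the Zfp36 family members that changed most are shown because their genes moved together. The sequences are those of RefSeq on GRCm38.p6, from 250 bases before to 50 bases after the gene's start, on the gene's strand, with matches to the motifs searched in capitals. RefSeq held such a window for 4 of the 5 genes.
Zfp36 promoter, chr7:28379179-28379478, minus strand: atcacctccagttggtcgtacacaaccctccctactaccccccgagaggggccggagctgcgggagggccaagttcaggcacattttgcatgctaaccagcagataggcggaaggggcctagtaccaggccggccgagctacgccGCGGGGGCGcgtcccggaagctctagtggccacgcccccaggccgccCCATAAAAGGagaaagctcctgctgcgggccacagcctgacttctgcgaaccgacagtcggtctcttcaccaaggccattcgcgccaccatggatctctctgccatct
Zfp36l1 promoter, chr12:80112964-80113263, minus strand: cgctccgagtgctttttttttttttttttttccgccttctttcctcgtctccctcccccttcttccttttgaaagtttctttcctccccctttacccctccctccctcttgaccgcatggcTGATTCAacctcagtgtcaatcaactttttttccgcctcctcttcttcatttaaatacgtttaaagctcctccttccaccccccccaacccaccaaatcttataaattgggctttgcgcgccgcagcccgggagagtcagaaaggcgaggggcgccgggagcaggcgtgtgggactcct
Motifs of 5 factor families known to follow T cell activation were searched on both strands: AP-1 (TGANTCA), CRE (TGACGTCA), EGR (GCGNGGGCG), the CArG box of serum response factor, and the NFAT core (GGAAA). The Zfp36 window held 1 EGR match 105 bases upstream and 1 CArG box 58 bases upstream of the start. The Zfp36l1 window held 1 AP-1 match 129 bases upstream and 4 NFAT cores on the opposite strand, which are not in capitals. The Rc3h1 window held an AP-1 match 133 bases upstream and 1 NFAT core, and the Zc3h12a window held none of these motifs. Of 32851 RefSeq promoter windows, 7.81% held AP-1, 1.79% CRE, 5.55% EGR, 1.63% a CArG box and 61.3% an NFAT core. These are matches of letters, not sites of binding. The RefSeq start of Zfp36 lies inside the interval that GENCODE gives the gene.

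The proteins' own recognition element occurs in several of their transcripts. The heptamer TATTTAT, the DNA spelling of the core that ZFP36 proteins bind, was found 3 times each in the 3' UTRs of Zfp36, Zfp36l1 and Zfp36l2, 2 times in that of Rc3h1 and 0 times in that of Zc3h12a. One window of each is shown with the heptamer in capitals, from GRCm38 with GENCODE gene models: the first 9-base form TTATTTATT or, where there is none, the first heptamer, beside the same window of 3 reported target transcripts.
Zfp36, chr7:28376952-28376978, minus strand: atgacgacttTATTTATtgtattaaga
Zfp36l1, chr12:80108168-80108194, minus strand: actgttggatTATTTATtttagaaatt
Zfp36l2, chr17:84184915-84184941, minus strand: ctatttaactTATTTATtatcttgtga
Rc3h1, chr1:160970044-160970070, plus strand: ctttactcatTATTTATtgagatgagg
Tnf, chr17:35199690-35199716, minus strand: ttgcacttatTATTTATTATTTATtta
Ifng, chr10:118445324-118445350, plus strand: aatctaaaccTATTTATtaatatttaa
Il10, chr1:131024386-131024412, plus strand: ctctccgaaaTATTTATtacctctgat
Among 3' UTRs within 25% of the same length, the heptamer was present in 19.2% for Zfp36 (774 bases), 37.8% for Zfp36l1 (1835 bases) and 37.8% for Zfp36l2 (1822 bases). It was present in 76.8% for the 7181-base 3' UTR of Rc3h1, where a match is therefore common. Tnf held 8 heptamers, Ifng 4, Il10 4 and Ccl3 1. Over all 21005 protein-coding genes with a 3' UTR, 27.6% held at least 1, and over the 18 reported target transcripts, 66.7% did.

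Zc3h12a (ENSMUSG00000042677; chromosome 4, 125118423 to 125127840, minus strand) was the least abundant of the 5 genes by TPM in unstimulated spleen, at 6.16 ± 3.31 TPM (SD, n = 5). It had 45.4, 81.3, 42.7, 41.4 and 102 CPM in stimulated spleen, against 7.58, 8.52, 7.98, 9.58 and 6.08 CPM in unstimulated spleen. Replicates 37 and 40 were the highest stimulated libraries for Zc3h12a, and they were also the highest for Zfp36 and Zfp36l1. The log2 fold change was 2.95 ± 0.29 (adjusted p = 1.7e-05).

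Rc3h1 (ENSMUSG00000040423; chromosome 1, 160906418 to 160974978, plus strand) had the smallest difference, with 89.0, 96.3, 70.1, 76.5 and 95.1 CPM in stimulated spleen, against 50.1, 62.8, 64.0, 54.2 and 54.5 CPM in unstimulated spleen. Its log2 fold change of 0.55 ± 0.14 (adjusted p = 0.014) depended on the scaling. With library totals in place of TMM factors, the median of all genes shifted by -0.65, and Rc3h1 then stood at -0.12 (adjusted p = 0.45), so its rise holds relative to the other genes only. By TPM it averaged 17.02 ± 1.65 in stimulated and 19.51 ± 2.42 in unstimulated spleen (SD, n = 5 each). The other 4 genes stayed higher under library totals, at log2 fold changes of 3.91 for Zfp36, 3.29 for Zfp36l1, 2.24 for Zc3h12a and 1.42 for Zfp36l2. All 5 calls held when any 1 spleen library was left out. CD8 T cell markers summed to 1507 to 2421 CPM in stimulated and 1809 to 2280.0 CPM in unstimulated spleen. B cell markers summed to 160 to 351 CPM with stimulation and 128 to 412 CPM without. CD4 T cell markers summed to 24.6 to 99.9 CPM with stimulation and 13.5 to 36.1 CPM without. Of 5 B cell markers 3 were called higher and 0 lower, and of 4 CD4 T cell markers 1 and 0. Their part in the result was not tested.

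The 3 Zfp36 family members made up different shares of the family with and without stimulation. Shares of the family's summed TPM do not depend on how libraries are scaled against each other, but they depend on gene length, for which the files use 1792 bases for Zfp36 where GENCODE gives 2790. Zfp36l2 made up 15% ± 1.2 of the family in stimulated spleen and 45.2% ± 4.1 in unstimulated spleen (SD, n = 5 each). Zfp36 made up 47.8% ± 3.5 with stimulation and 25.3% ± 2.3 without, and Zfp36l1 made up 37.1% ± 3.1 with stimulation and 29.6% ± 2.9 without. At the GENCODE length, Zfp36 would make up 37.1% with stimulation and 17.8% without, and Zfp36l1 44.8% with stimulation and 32.5% without, so the order of Zfp36 and Zfp36l1 in stimulated spleen depends on that length. The highest Zfp36l2 share among stimulated spleen libraries, 16.8%, was below the lowest among unstimulated ones, 42.9%. In brain the shares of stimulated and unstimulated libraries overlapped. Zfp36l2 made up 52.2% ± 21.7 in stimulated and 53.9% ± 9.0 in unstimulated female brain (n = 5 each), and 71.4% ± 14.5 (n = 4) in stimulated and 49.1% ± 16.4 (n = 6) in unstimulated aged male brain. Stimulated male brain replicate 19 alone had 52.9%. In young male brain Zfp36l2 made up 40.8% ± 10.7 (n = 5). These shares are descriptions and were not tested.

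**Figure D2:**
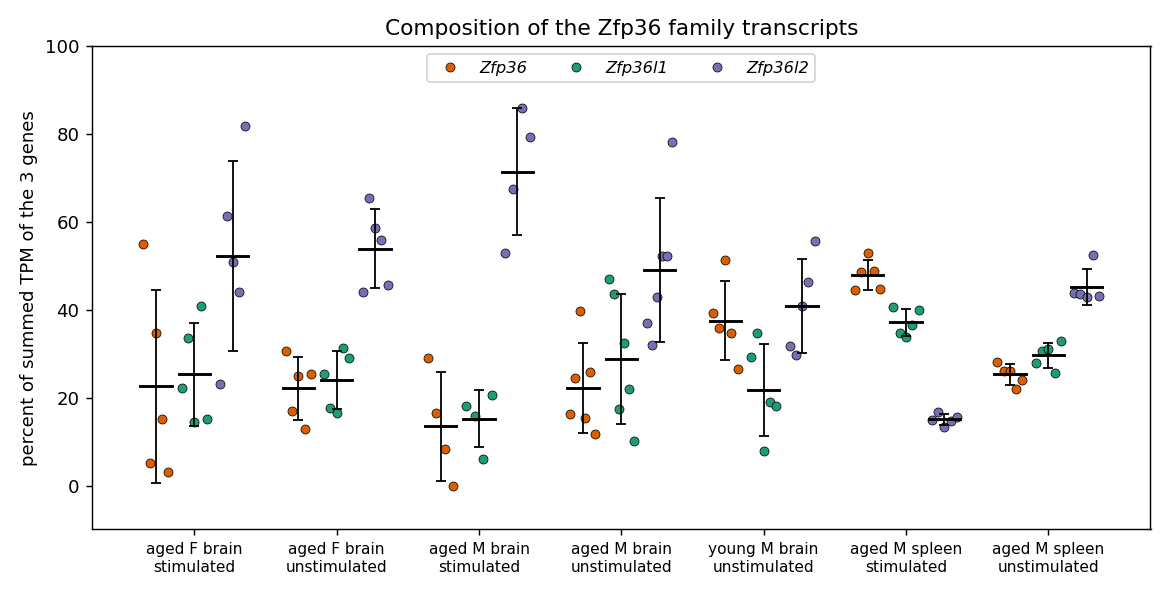
Share of each Zfp36 family member in the summed TPM of Zfp36, Zfp36l1 and Zfp36l2, in percent, per library. Points are libraries and the bar and whiskers are the mean and SD of a group; F is female and M is male. Zfp36l2 lies between 13.4 and 16.8% in stimulated spleen and between 42.9 and 52.4% in unstimulated spleen, and the brain groups overlap.

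In female brain no member passed the threshold, although 4 of the 5 had positive log2 fold changes. Zfp36l2 had 205, 884, 677, 604 and 1603 CPM in stimulated female brain, against 106, 371, 457, 218 and 245 CPM in unstimulated female brain. The ranges overlapped through stimulated replicate 23, and the log2 fold change of 1.56 ± 0.60 did not pass (adjusted p = 0.19; unadjusted p = 0.021), with an interval of 0.27 to 2.84. Without stimulated replicate 27, the highest library, the log2 fold change was 1.04. No member passed when any 1 female brain library was left out. Zfp36l1 had 165, 269, 115, 306 and 179 CPM with stimulation, against 34.6, 55.1, 74.7, 75.1 and 86.2 CPM without. These groups did not overlap, which held for 3.65% of the 6305 genes tested in the upward direction. Under library totals without TMM they did overlap, at 55.7 to 216 CPM with stimulation and 52.4 to 120 CPM without. The Zfp36l1 log2 fold change of 1.74 ± 0.83 did not pass either (adjusted p = 0.32). Of all genes tested, 6.09% were called.

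Zfp36 in female brain had 236, 35.8, 223, 101 and 29.8 CPM with stimulation, against 35.2, 46.4, 92.7, 24.1 and 65.8 CPM without. Replicates 24 and 27 lay within the unstimulated range, and the log2 fold change was 1.34 ± 1.03 (adjusted p = 0.61; interval -0.85 to 3.53). Zc3h12a had 23.7, 13.3, 61.4, 22.2 and 0 CPM in stimulated female brain and 8.83, 6.43, 4.24, 3.94 and 24.5 CPM in unstimulated female brain. Rc3h1 had 24.8, 63.3, 98.0, 10.4 and 0 CPM in stimulated female brain and 58.2, 48.8, 88.4, 14 and 110 CPM in unstimulated female brain. The intervals of their log2 fold changes spanned -1.63 to 4.40 for Zc3h12a and -3.47 to 2.18 for Rc3h1. Each interval holds both 0 and the value measured for that gene in spleen. Stimulated replicate 27 had 0 counts of both, and 3 counts there would have been 3.19 CPM. Under library totals without TMM, the female brain values of Zfp36, Zfp36l1 and Zfp36l2 were 0.05, 0.38 and 0.06, with a median of all genes at -1.81. Limma-voom with quality weights called Zfp36l1 (1.96, adjusted p = 0.04) and Zfp36l2 (1.79, adjusted p = 0.038). The mitochondrial share also differed between these groups, at 42.05 to 69.73% with stimulation and 8.48 to 12.76% without. Markers of choroid plexus, neurons and glia summed to 419 to 1505 CPM in stimulated and 38.1 to 75.0 CPM in unstimulated female brain, with Mog and Aqp4 at 0 in all stimulated and Mog and Gfap in all unstimulated libraries, and CD8 T cell markers to 835 to 2008 CPM in stimulated and 2082 to 3128 CPM in unstimulated female brain. Neither list overlapped between the groups, and the part of these differences in the result was not tested.

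In aged male brain, 0 of the 5 genes passed (0 with an unadjusted p under 0.05), in a comparison where edgeR called 38.1% of 7540 genes and the median over all genes was -2.62 on the log2 scale. DESeq2 called none of the 5 either, and limma-voom called Rc3h1 lower. Zfp36 had 145, 40.7, 33.9 and 0 CPM in stimulated male brain and 57.1, 93.6, 174, 56.8, 120 and 21.7 CPM in unstimulated male brain. Zfp36l1 had 105, 42.6, 43.6 and 48.0 CPM with stimulation and 192, 208, 99.5, 148, 124 and 26.6 CPM without. For both genes the stimulated libraries lay within or below the unstimulated range, and the log2 fold changes were -0.59 ± 1.34 for Zfp36 and -1.04 ± 1.14 for Zfp36l1 (adjusted p = 0.78 and 0.53).

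Zfp36l2 had the highest TPM of the 5 genes in each stimulated male brain library, at 42.14 to 70.96 TPM. Its levels there were 549, 343, 736 and 283 CPM, against 271, 256, 391, 402, 506 and 301 CPM in unstimulated male brain. The groups overlapped, and the log2 fold change was 0.55 ± 0.83 (adjusted p = 0.66), or -0.02 under library totals without TMM. Zc3h12a had 6.09, 3.83, 0 and 0 CPM in stimulated male brain, and Rc3h1 had 175 CPM in replicate 19 and 0 in replicates 20, 21 and 22. In unstimulated male brain Zc3h12a had 41.2, 229, 7.26, 1.71, 4.27 and 1.03 CPM and Rc3h1 87.2, 77.0, 89.0, 92.7, 126 and 99.0 CPM. The log2 fold changes were -4.09 ± 2.00 for Zc3h12a (adjusted p = 0.12) and -1.10 ± 1.72 for Rc3h1 (adjusted p = 0.67). The level that 3 counts would give was 1.435 CPM in replicate 20, 1.391 in 21 and 3.002 in 22. Without replicate 19, every remaining stimulated male brain library was at 0 counts of Rc3h1, and edgeR called the gene lower (adjusted p = 0.0048). Without replicates 20 to 22, which leaves 1 stimulated male brain library assumed to vary like the others, Zfp36 stood at 0.74 and Rc3h1 at 0.85, and no member was called. The summed CD8 T cell markers were 108 to 539 CPM in stimulated and 3523 to 5269 CPM in unstimulated aged male brain, and 10 markers of choroid plexus, neurons and glia summed to 92.1 to 4269.6 CPM in stimulated and 70.0 to 1402 CPM in unstimulated aged male brain. Of these 10, 6 were at 0 in all stimulated and 1 in all unstimulated libraries. Their part in the result was not tested.

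The responses of male brain and spleen were then compared by an interaction contrast, the log2 fold change in brain minus that in spleen. It was -5.24 ± 1.24 for Zfp36 (adjusted p = 0.0024), -5.12 ± 0.86 for Zfp36l1 (adjusted p = 9.7e-05) and -7.13 ± 1.89 for Zc3h12a (adjusted p = 0.0056). For each of them the log2 fold change was higher in spleen than in male brain. Zfp36l2, at -1.67 ± 0.67 (adjusted p = 0.051), and Rc3h1, at -1.67 ± 1.66 (adjusted p = 0.45), did not pass. This contrast called 37.8% of 12117 genes, with 35.7% in the lower direction, and its median over all genes was -4.04, so calls of 3 members as lower are not particular to them. Without stimulated brain replicates 20 to 22, Zfp36 (-3.67, adjusted p = 0.0051) and Zfp36l1 (-4.14, adjusted p = 0.0023) were still called, and Zc3h12a (-5.71, adjusted p = 0.14) was not. Zfp36l2 passed when unstimulated brain replicate 7 or 8 or stimulated brain replicate 19, 21 or 22 was left out (adjusted p = 0.015 to 0.047), and Rc3h1 when stimulated brain replicate 19 was (adjusted p = 2.3e-07). Tissue and library set cannot be told apart here.

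Set directly against stimulated spleen, stimulated male brain was lower for Zfp36l1 (log2 fold change -2.68 ± 0.60, adjusted p = 0.0042) and Zc3h12a (-4.42 ± 1.39, adjusted p = 0.025), and 48.5% of 9135 genes were called, with 46.7% in the lower direction. Zfp36 (-2.87 ± 1.27, adjusted p = 0.096) missed the threshold. Zfp36l2 averaged 478 ± 207 CPM in stimulated male brain (n = 4) and 299 ± 80.3 CPM in stimulated spleen (n = 5). Its log2 fold change was 0.88 ± 0.52, with an adjusted p of 0.21, whereas the median of all genes was -3.02. Rc3h1 stood at -0.79 (adjusted p = 0.78), and it was called lower without stimulated brain replicate 19 (-12.17, adjusted p = 4.0e-04), where the other 3 brain libraries were at 0 counts, and by limma-voom (-6.66, adjusted p = 0.002). With replicate 19 as the only stimulated brain library, assumed to vary like the spleen group, all 5 genes passed, in a fit that called 60.9% of 12984 genes. Zfp36, Zfp36l1 and Zc3h12a were then lower (-1.59, -2.01 and -3.31), and Zfp36l2 and Rc3h1 higher (0.93 and 1.09). The Zc3h12a call was lost without stimulated spleen replicate 37 (-4.34, adjusted p = 0.051), and Zfp36 passed without stimulated brain replicate 19 (-4.05, adjusted p = 0.032) or 22 (-2.50, adjusted p = 0.014).

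**Figure D3:**
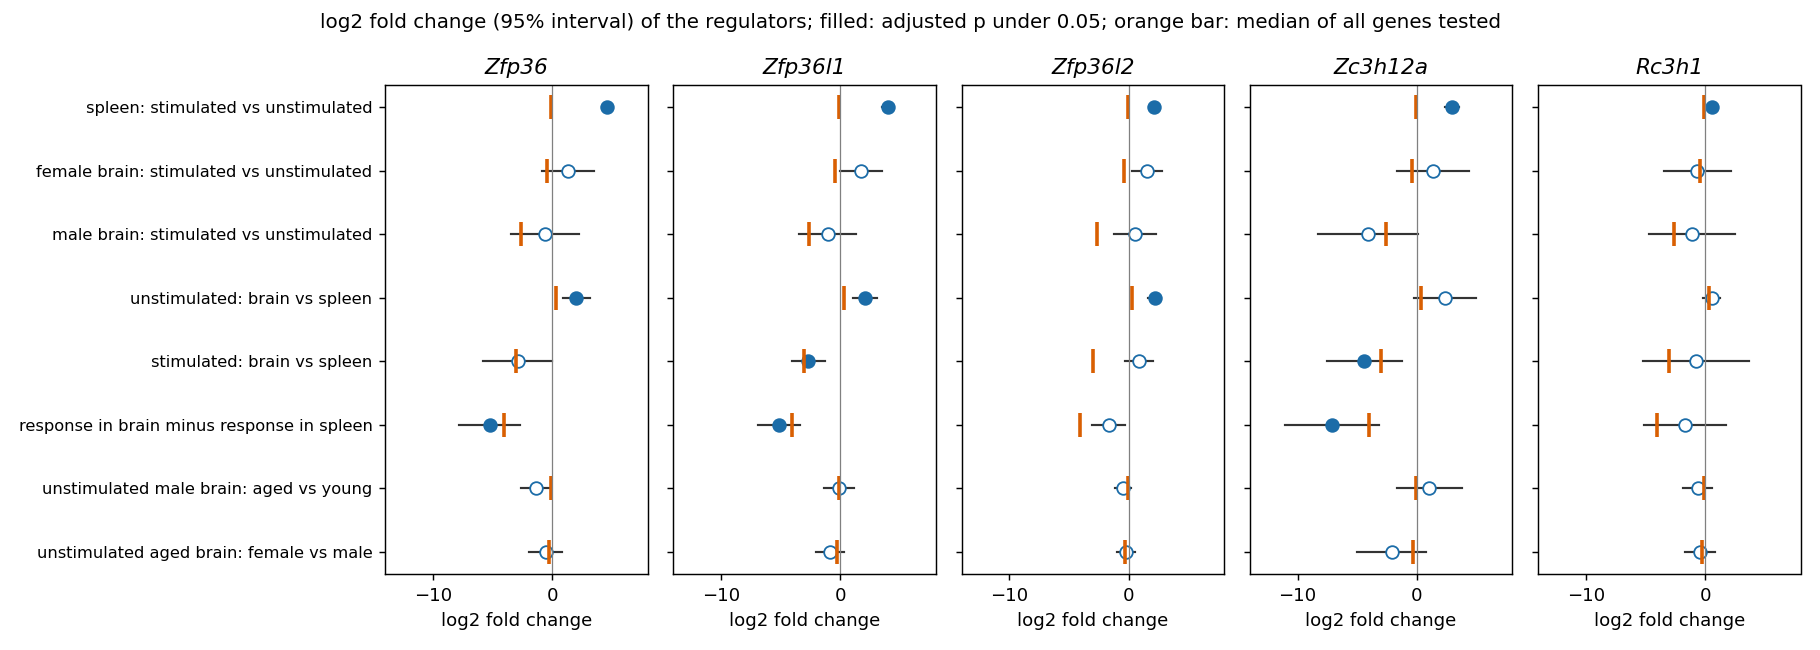
Log2 fold change of each decay regulator in the 8 comparisons, the group named first over the other. Points are edgeR estimates with 95% intervals, filled where the adjusted p was under 0.05, and the orange bar is the median of all genes tested in that comparison. In spleen all 5 points are filled (Rc3h1 stood at -0.12 under library totals without TMM), and in the brain comparisons of stimulation, age and sex none is.

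Without stimulation, brain cells held more of the Zfp36 family than spleen cells did. Aged male brain averaged 354 ± 95.9 CPM of Zfp36l2 (n = 6) and unstimulated spleen 68.1 ± 4.61 CPM (n = 5), with no overlap, as for 4.48% of 11040 genes in the upward direction. The log2 fold change was 2.2 ± 0.26 (adjusted p = 1.0e-04). Zfp36l1 averaged 133 ± 65.9 CPM in brain and 27.6 ± 5.09 CPM in spleen (2.07 ± 0.47, adjusted p = 0.011), and Zfp36 averaged 87.1 ± 54.3 CPM in brain and 18.6 ± 3.05 CPM in spleen (2.02 ± 0.53, adjusted p = 0.028). For both, the groups overlapped through brain replicate 12, which lay within the spleen range. These 3 calls compare with 3.35% of all genes called higher and 7.37% in either direction, and the median of all genes was 0.31.

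Zfp36l2 alone kept its call under library totals without TMM (1.65, adjusted p = 0.0038). Zfp36l1 then stood at 1.51 (adjusted p = 0.079) and Zfp36 at 1.46 (adjusted p = 0.17). Zfp36 also lost its call when unstimulated brain replicate 9 or 11, or any 1 of the 5 unstimulated spleen libraries, was left out, with log2 fold changes from 1.71 to 2.07 and adjusted p from 0.054 to 0.091. Rc3h1 averaged 95.2 ± 16.8 CPM in brain and 57.1 ± 6.03 CPM in spleen without overlap, as for 4.48% of genes in the upward direction. Its 0.55 ± 0.33 did not pass (adjusted p = 0.47). Under library totals without TMM it stood at 0.01, and its brain (63.7 to 139 CPM) and spleen (85.9 to 107 CPM) libraries overlapped. Zc3h12a averaged 47.4 ± 90.3 CPM in brain and 7.95 ± 1.29 CPM in spleen (2.35 ± 1.21, adjusted p = 0.38). That mean rested on brain replicate 8, without which the log2 fold change was 0.28. Microglia and macrophage markers summed to 166 to 903 CPM in brain and 191 to 234 CPM in spleen, those of choroid plexus, neurons and glia to 70.0 to 1402 CPM in brain and 44.1 to 48.4 CPM in spleen, and CD8 T cell markers to 3523 to 5269 CPM in brain and 1809 to 2280.0 CPM in spleen. B cell markers summed to 0.380 to 27.9 CPM in brain and 128 to 412 CPM in spleen. Neutrophil and monocyte markers summed to 0.607 to 441 CPM in brain and 6.00 to 23.6 CPM in spleen. Brain replicate 9, the highest brain library for Zfp36, was also the highest for microglia and macrophage and for neutrophil and monocyte markers. The part of all these markers in the result was not tested, and tissue and library set cannot be told apart.

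Age and sex gave no call for any of the 5 genes. In unstimulated male brain, Zfp36 had 57.1, 93.6, 174, 56.8, 120 and 21.7 CPM in aged mice, against 219, 278, 370, 158 and 122 CPM in young mice. Most aged libraries lay below every young library, with replicate 9 inside the young range. The log2 fold change was -1.38 ± 0.58, with an unadjusted p of 0.027 and an adjusted p of 0.994. Neutrophil and monocyte markers summed to 441 CPM in aged replicate 9 and 617 CPM in young replicate 4, the highest libraries of their groups for Zfp36. They summed to 0.607 to 56.3 CPM in the other aged and 0.937 to 378 CPM in the other young libraries. Young replicate 3, at 278 CPM of Zfp36, had 2.22 CPM of them. Their part in the result was not tested. Zfp36l2 averaged 354 ± 95.9 CPM in aged and 487 ± 91.8 CPM in young brain (-0.44 ± 0.33), Rc3h1 95.2 ± 16.8 CPM in aged and 154 ± 115 CPM in young brain (-0.63 ± 0.59), and Zfp36l1 133 ± 65.9 CPM in aged and 150 ± 98.1 CPM in young brain (-0.11 ± 0.60). Zc3h12a, at 1.06 ± 1.31, turned to -1.02 without aged replicate 8. EdgeR called 0 of 8068 genes by age (0%; 374 had an unadjusted p under 0.05), limma-voom 1 and DESeq2 464.

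Between unstimulated aged female and male brain, the log2 fold changes were -0.55 ± 0.66 for Zfp36, -0.87 ± 0.57 for Zfp36l1, -0.20 ± 0.37 for Zfp36l2, -2.10 ± 1.37 for Zc3h12a and -0.43 ± 0.59 for Rc3h1 (adjusted p = 0.999 each). Of 8691 genes, 0.150% were called. The intervals of Zfp36l2 by sex, -0.97 to 0.58, and by age, -1.13 to 0.24, were the narrowest of the family in these comparisons. Differences within them could not be told from no difference here. Zfp36l2 turned to 0.07 by sex under library totals without TMM.

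Over the 7 groups, stimulated spleen had the highest mean CPM of Zfp36, Zfp36l1 and Zc3h12a, and unstimulated spleen the lowest of all 3 Zfp36 family members. By TPM, stimulated male brain was lower than unstimulated spleen for Zfp36 (13.87 and 15.83 TPM) and Zfp36l1 (12.77 and 18.51 TPM). Neighbours in the order of means were compared by a two-sided exact permutation test on log2(CPM + 1), adjusted over the 30 pairs of the 5 genes. For Zfp36 the order ran from stimulated spleen to young brain (229 ± 98.2 CPM), stimulated female brain (125 ± 99.5), unstimulated aged male brain, stimulated male brain (54.9 ± 62.8), unstimulated female brain (52.8 ± 27.1) and unstimulated spleen. Only its first and last steps differed (exact permutation p = 0.0079, adjusted p = 0.048 each), the smallest p that 5 against 5 libraries allow. For Zfp36l1, stimulated spleen exceeded stimulated female brain (207 ± 78.7 CPM) and stimulated male brain (59.8 ± 30.3 CPM) exceeded unstimulated spleen by the same exact test (adjusted p = 0.048 each). The second of these turned direction by TPM, where stimulated male brain was at 0.690 of unstimulated spleen, and it was at 1.04 under library totals. Unstimulated female brain (65.2 ± 20.4 CPM) and the other groups between them did not differ from their neighbours beyond their spread.

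For Zfp36l2 the order was led by stimulated female brain, at 795 ± 514 CPM (SD, n = 5), and stimulated spleen came after 4 brain groups. That lead held for TMM-scaled CPM only, since young brain led under library totals (449 CPM, against 405 CPM in stimulated female brain) and by TPM (99.08 TPM, against 78.92 TPM in stimulated female brain). Its last step, from unstimulated female brain (279 ± 137 CPM) to unstimulated spleen, was the only one that differed (exact permutation adjusted p = 0.048). No neighbours differed for Zc3h12a, whose means ran from 62.5 ± 27.5 CPM in stimulated spleen to 2.48 ± 3.01 CPM in stimulated male brain. None differed for Rc3h1, whose highest mean was 154 ± 115 CPM in young brain. These 5 steps lie at the edge of the threshold, and under library totals without TMM 0 of the 30 passed. Stimulated male brain without replicates 20 to 22 is 1 library, replicate 19, at 145 CPM of Zfp36, 105 of Zfp36l1 and 6.09 of Zc3h12a.

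RSEM's length estimates show which annotated transcripts the reads of a gene were assigned to. Zc3h12a has a full-length transcript of 2755 bases and a retained-intron transcript of 660 bases. The short transcript took 28.8 to 50.0% of the gene's abundance in stimulated spleen (median 39.6%) and 0 to 70.1% in unstimulated spleen (median 17.4%), and it was at 0 in all 5 young brain libraries. In unstimulated aged male brain, replicate 8, the library with 229 CPM, had 89.6% on the short transcript and replicate 9 had 98.2%, while the median was 0. The high Zc3h12a value of replicate 8 was therefore assigned mostly to a transcript that keeps an intron.

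Rc3h1 has annotated transcripts of 11006, 3476 and 663 bases. Its mean length was 4212.5 to 4356.2 bases in stimulated spleen and 4035.3 to 4347.4 bases in unstimulated spleen. In unstimulated aged male brain it was 3479.1 to 3759.4 bases, below every spleen library. The other unstimulated brain groups overlapped spleen, with 3476 to 4059.7 bases in female brain and 3554.1 to 11006 bases in young brain. In stimulated female brain the estimates covered the range from 3476 to 11006 bases, with at most 439 counts. Young brain replicate 2 (984 counts) and stimulated male brain replicate 19 (922 counts) were also at 11006 bases. The part of read number in these lengths was not tested. The tissue difference was not tested, and tissue and library set cannot be told apart.

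**Figure D4:**
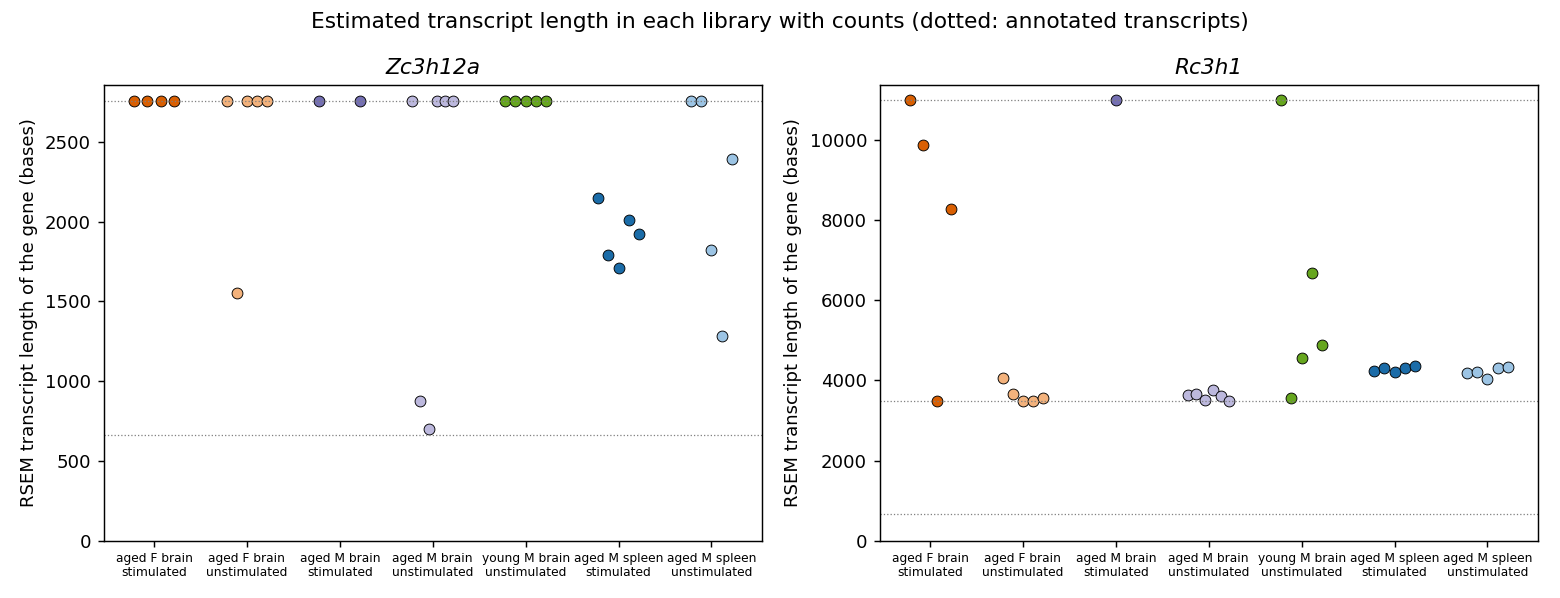
Transcript length that RSEM estimated for Zc3h12a and Rc3h1, in bases, in each library with counts of the gene. Points are libraries, dotted lines are the annotated transcript lengths, and F and M are female and male. Aged male brain replicates 8 and 9 lie near the short Zc3h12a transcript, and unstimulated aged male brain lies below spleen for Rc3h1.

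Genes that work with these regulators were taken from lists by role and are described by counts, with calls over all genes tested. In stimulated spleen, 7 of 19 genes of deadenylation were higher and 0 lower than in unstimulated spleen, where 12.6% of all genes were higher. Their median log2 fold change was 0.22, beside -0.07 for all genes. The genes that moved most encode adaptors of the deadenylase rather than its subunits. Tob2 averaged 216 ± 101 CPM with stimulation and 17.4 ± 1.22 CPM without (3.60, adjusted p = 2.8e-06), and Btg2 averaged 305 ± 82.9 CPM with stimulation and 32.2 ± 1.93 CPM without (3.21, adjusted p = 1.1e-07). Tob1 averaged 43.0 ± 23 CPM with stimulation and 10.1 ± 2.47 CPM without (2.07, adjusted p = 9.2e-04). Tob1, Tob2, Btg1 and Btg2 stayed higher under library totals without TMM, by which 6 genes of the list were lower, where 39.4% of all genes were.

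Decapping and exonuclease genes gave 2 higher and 2 lower of 27 in spleen, with a median of -0.12. This count and the next ones with TMM stand beside 12.6% of all genes higher and 18.7% in either direction. The decapping activators Patl1 (1.07) and Ddx6 (0.58) rose, and the decapping enzyme gene Dcp2 (-1.30) and the exosome subunit gene Exosc7 (-1.40) fell. Under library totals 0 were higher and 15 lower, beside 4.71% of all genes higher and 39.4% lower. Of 12 kinases, proteases and partners of the regulators, 6 were higher, led by Mapkapk2 (1.81), whose kinase phosphorylates tristetraprolin, Bcl10 (1.2), part of the complex that activates the MALT1 protease that cleaves regnase-1, and Nufip2 (1.03), a roquin partner. Mapkapk2 alone stayed higher without TMM (1.10), and 6 of 12 were then lower, again beside 39.4% of all genes. Other AU-rich element binders gave 3 of 11 higher, among them Hnrnpab (0.68) and Hnrnpd (0.45). Without TMM 0 were higher and 4 lower, beside 39.4% of all genes lower. None of 3 tested paralogs of the regulators was called (median 0.34).

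Most transcripts reported as targets of these proteins rose in spleen too. Of 18 listed, 12 passed the low-count filter, and 10 of these were higher under both scalings. Of all genes, 12.6% were higher with TMM and 4.71% without. The median log2 fold change of the tested targets was 4.89. The filter also keeps genes that are high in the stimulated libraries alone, as Il10 was. For such a gene a higher call was close to fixed in advance, so the count and the median lean upward. Ifng, the interferon gamma gene, averaged 2303 ± 697 CPM with stimulation and 13.6 ± 3.65 CPM without (7.38, adjusted p = 3.9e-09). Il10 averaged 51.0 ± 14.5 CPM with stimulation and 0.197 ± 0.343 CPM without (7.95), and the NF-kappaB regulator gene Nfkbid 623 ± 358 CPM with stimulation and 4.82 ± 0.802 CPM without (6.99). RNA levels do not separate synthesis from decay.

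**Figure D5:**
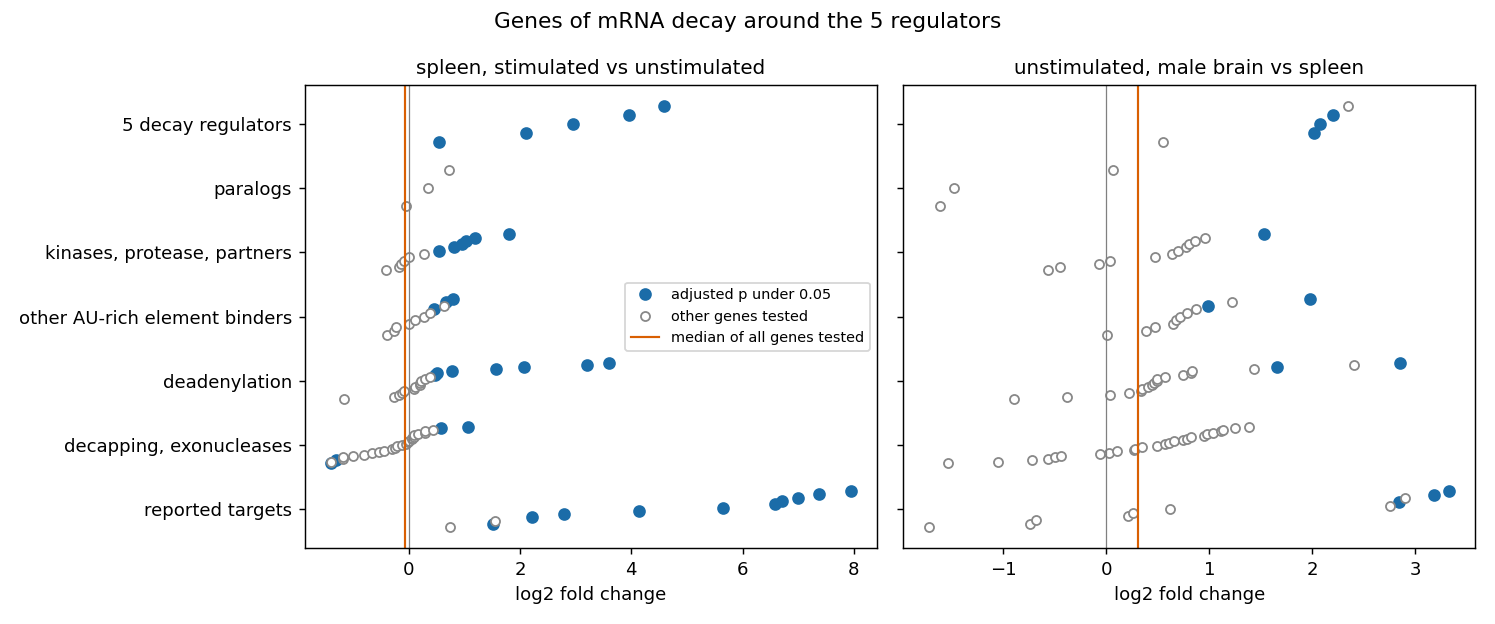
Log2 fold changes of the 5 regulators and of the lists of genes around them, in stimulated against unstimulated spleen (left) and in unstimulated male brain against unstimulated spleen (right). Points are genes, filled where the adjusted p was under 0.05, and the orange line is the median of all genes tested. Reported targets reach 7.95 in stimulated spleen (Il10, barely detected without stimulation), and most genes of decapping and exonucleolytic decay lie near the median.

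Reported targets were also called in brain, with the same limit of the low-count filter. In stimulated female brain 5 of 9 tested targets were higher, where 1.92% of all genes were, and in stimulated male brain 2 of 10, where 1.75% of all genes were. Without stimulated male brain replicates 20 to 22, 1 of 14 was higher, beside 1.12% of all genes, and with DESeq2 size factors 3 of 10. Tnf averaged 815 ± 554 CPM in stimulated and 11.7 ± 8.75 CPM in unstimulated female brain (6.15, adjusted p = 0.016), and 679 ± 388 CPM in stimulated and 35.1 ± 24.5 CPM in unstimulated male brain (4.37, adjusted p = 0.0083). Ccl3, a chemokine gene, averaged 1012 ± 658 CPM in stimulated and 4.79 ± 5.82 CPM in unstimulated female brain (7.79, adjusted p = 0.011), and 1000.3 ± 764 CPM in stimulated and 13.7 ± 18.2 CPM in unstimulated male brain (6.30, adjusted p = 0.0069). Both genes kept these calls under library totals without TMM. The other female calls, Nfkbid (3.41), Ifng (3.13) and Nfkbiz (3.27), were lost without TMM. Of the decay machinery, 9 of 19 deadenylation and 10 of 22 decapping and exonuclease genes were lower in stimulated male brain, where 36.4% of all genes were. Without replicates 20 to 22, 4 of 19 deadenylation and 2 of 26 decapping and exonuclease genes were lower, beside 7.33% of all genes.

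Between unstimulated male brain and spleen, fewer genes around the regulators were called, as was so over all genes. Of all genes, 7.37% were called here (3.35% higher), beside 18.7% for spleen stimulation. Tob2 averaged 144 ± 48.3 CPM in brain and 17.4 ± 1.22 CPM in spleen (2.85, adjusted p = 3.7e-04), and Btg2 116 ± 40.8 CPM in brain and 32.2 ± 1.93 CPM in spleen (1.66, adjusted p = 0.0095), the only 2 of 19 deadenylation genes. Arid5a (1.98), which protects some cytokine transcripts from regnase-1, and Ybx1 (0.99) were the higher ones of 11 other binders, and Ppp2ca (1.53), a phosphatase subunit gene, of 12 kinases and partners. Ifng averaged 155 ± 120 CPM in brain and 13.6 ± 3.65 CPM in spleen (3.33, adjusted p = 0.0051), and Nfkbid (3.18) and Nfkbiz (2.84) were also called. Tob2, Arid5a, Ifng and Nfkbiz kept their calls without TMM, and 0 of 26 decapping and exonuclease genes were called under either scaling.

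Genes were ranked by likeness to each regulator, by Pearson's r of log2(CPM + 1) over the 26 libraries outside stimulated brain, among 6226 genes. These libraries share groups, sets and depth, so r is given as a description. The leading genes for Zfp36 were Jun (r = 0.91), Nfkbia (0.89) and Smad7 (0.89), and those for Zfp36l1 included Fosb (0.93) and Hsp90ab1 (0.92). For Zfp36l2 they were Dusp1 (0.90), Junb (0.89) and Rps24 (0.87). Zc3h12a had weaker leads, among them Hspa4 (0.76) and Ctsl (0.75), and Rc3h1 had St13 (0.83), Eif3h (0.82) and Rfwd3 (0.81). Within the family, r was 0.87 between Zfp36 and Zfp36l1, 0.69 between Zfp36 and Zfp36l2, and 0.59 between Zfp36l1 and Zfp36l2. Over the 16 unstimulated brain libraries alone, Jun with Zfp36 was at 0.71 and Fosb with Zfp36l1 at 0.68, and the family pairs were at 0.55, 0.68 and 0.33 in the same order.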

How the data were processed

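Reads were aligned with Bowtie2 2.2.0 and quantified with RSEM 1.2.12 against mm10, per the submitters' processing notes. Neither the annotation release nor any use of strand is given in the sources used here. The authors deposited a table of whole-number counts for 38924 genes and, per the file headers, RSEM expected counts, TPM values and transcript lengths for each library. Deposited counts and expected counts differed by 0.5 or less. RSEM shares reads between similar transcripts, so single-transcript lengths are estimates. Gene positions are from GENCODE on GRCm38, and promoter sequences are from RefSeq on GRCm38.p6.

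Counts were tested in R 4.3.3 with edgeR 4.0.16 (filterByExpr by group, min.count 10, TMM scaling, glmQLFit with robust settings, glmQLFTest, two-sided), fitted to the groups compared and adjusted by the Benjamini-Hochberg method over all genes tested, with a threshold of 0.05. Errors of log2 fold changes are standard errors and intervals are 95%, from the t distribution of the fit. CPM values use TMM-scaled totals over all 35 libraries. Floors of 3 counts cover counting error only. No pair of libraries in a group agreed within counting noise (chi-square over its degrees of freedom was at least 13.0). Alternatives were DESeq2 1.42.0, its size factors in edgeR, no low-count filter, limma 3.58.1 voom with quality weights, mitochondrial genes left out, rounded expected counts, hyphenated titles only in female brain, and each library left out. Library totals without TMM, and stimulated male brain replicates 20, 21 and 22 left out, were added after seeing the data.

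The 5 genes and the lists were chosen with earlier results of these data known. Named list genes were, per list and direction, up to 3 with the largest log2 fold change among those past the threshold with a mean of at least 5 CPM; where all of a group was at 0 counts, list genes are only counted here. Ifng and Nfkbiz in female brain, Btg1 and the genes that kept calls without TMM were named after their values were seen. Tables and figures used Python 3.11.15, numpy 2.4.6, pandas 2.3.3 and matplotlib 3.10.9. Some genes that the naming rule selects are not reported here. The fits and the exact test were tested on simulated data.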

Additional observations from a re-analysis of the deposited data

Results flagged for a closer look

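Of 35 sets of libraries (5 genes in 7 groups), 4 had a library far from the others of its group. The rule, Dixon's ratio on CPM, flags about 1 in 20 groups of normally distributed values. CPM need not follow that distribution, so this rate is no measure of chance here. Zc3h12a stood at 229 CPM in unstimulated aged male brain replicate 8, against 1.03 to 41.2 CPM in the other 5 libraries. Zc3h12a also stood at 24.5 CPM in unstimulated female brain replicate 17, against 3.94 to 8.83 CPM. In stimulated male brain, replicate 19 was far above the others for Rc3h1 (175 CPM, against 0 in the other 3) and for Zfp36l1 (105 CPM, against 42.6 to 48.0 CPM). That library also had the most genes detected of its group, 4464, and was the only one of its group with counts of Ddx3y; the part of these differences in its levels was not tested.

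The response to stimulation differed between aged male brain and spleen for 3 genes by the interaction contrast. The log2 fold change in brain minus that in spleen was -5.24 for Zfp36, -5.12 for Zfp36l1 and -7.13 for Zc3h12a. The contrast called 37.8% of all genes, 35.7% lower, with a median of -4.04, and Zc3h12a was not called without stimulated male brain replicates 20, 21 and 22 (-5.71, adjusted p = 0.14). Tissue and library set cannot be told apart in this contrast.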

How the results depend on the processing

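Of 299 log2 fold changes of the 5 genes recomputed under alternatives other than leaving out a library, 274 kept their direction and their side of the threshold, 11 reversed (of which 1 also lost its call and 1 became called), 11 others became called and 3 others lost their call. The 274 include the rounded expected counts, which repeat the deposited counts and so gave the same values by construction. Of 90 group levels relative to unstimulated spleen, 25 moved by more than the group's SD, 13 with TPM and 12 with library totals. In spleen, the direction and call of Zfp36, Zfp36l1, Zfp36l2 and Zc3h12a held under every alternative run. No paired analysis was run, because the groups share no replicate numbers and the labels do not say which libraries, if any, came from the same animal.

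With library totals in place of TMM, 4900 genes were called for spleen stimulation (523 higher and 4377 lower, against 1400 higher and 680 lower with TMM) and 2 by sex, 1 of the 5 regulators was called between unstimulated brain and spleen, and 0 neighbour steps in the order of levels passed. Log2 fold changes that reversed were -0.12 (Rc3h1, spleen), -0.02 (Zfp36l2, male brain), 0.07 (Zfp36l1, age) and 0.07 (Zfp36l2, sex). Without stimulated male brain replicates 20, 21 and 22, 1072 genes were called for male brain stimulation and 7903 between stimulated brain and spleen, where 5 regulators were called. Reversed values were 0.74 (Zfp36) and 0.85 (Rc3h1) for male brain stimulation, 1.09 (Rc3h1) between stimulated tissues and 0.48 (Rc3h1) for the difference in response.

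The DESeq2 test called 1742 genes for female brain stimulation, 2359 between unstimulated tissues, 464 by age and 234 by sex, and 4 regulators between stimulated tissues. Its size factors in edgeR called 6 genes by sex. Without a low-count filter the counts of genes were 704 for female brain, 1677 between unstimulated tissues, 25 by age and 29 by sex. Limma-voom called 1399, 1546, 1 and 43 genes in the same comparisons and 2773 for the difference in response. It called 1 regulator for male brain stimulation, 2 for female, 4 between stimulated tissues and 5 for the difference in response, and Zc3h12a reversed to -0.46 (unstimulated tissues), -1.46 (age) and 0.71 (sex). The hyphenated titles alone gave 135 genes for female brain. The cause was not tested for any of these.

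Leaving out each library in turn gave 49 (without unstimulated replicate 16) to 596 (without unstimulated replicate 15) genes for female brain, 0 to 1 by age and 4 to 15 by sex. The number of regulators called ranged from 0 to 1 for male brain stimulation, 1 to 4 between stimulated tissues and 3 to 5 for the difference in response, and the neighbour steps from 0 to 7. By age, Zfp36l1 ranged from -0.30 to 0.26 and Zc3h12a from -1.02 to 1.40. The stimulated brain libraries held few genes, so a level of 0 there is weak evidence of a low level. Ages are given as classes, cell numbers were not used here, and the strand of reads that overlap antisense genes is unknown.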
